A study of Danio rerio with 15 samples.

Results

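A total of 146 transcripts, of 46488 listed, had lower levels at 10 and 50 μg/l of dibutyl phthalate (DBP), a plasticiser, than at 0 and 100 μg/l in whole zebrafish embryos. They were chosen by measured values, as those for which every library at 10 and 50 μg/l lay below every library at 0 and 100 μg/l. The mean of the 5 libraries at 0 and 100 μg/l had to be at least 1.2 times that of the 6 libraries at 10 and 50 μg/l, with a mean of at least 1 CPM (counts scaled to a common library total) over 14 libraries and a length under 9000 bases. Transcripts for which all 3 libraries at 100 μg/l exceeded the other 11 were left out, which removed 8 of the 154 that met the other conditions. Of 25977 transcripts that met the level and length conditions, 0.562% were members. Since the rule used this contrast, the share is only a description. The mirrored rule, highest at 10 and 50 μg/l, was met by 157 transcripts. It had no leave-out condition, so the like number is the 154 before that condition.

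Every library came from a pool of 10 whole embryos of the AB wild-type strain, kept in DBP without solvent for 120 h. Each of the 5 doses, 0, 5, 10, 50 and 100 μg/l, was covered by 3 libraries, named by a replicate letter. Of 5 replicate beakers at a dose, those with the best RNA quality were sequenced, so the letters differ between doses. The unexposed controls stayed in fish water under the same conditions. The protocol text names 30 μg/l in place of 50. The dose in the titles was kept. The labels call the letters biological replicates, and p-values measure the spread between these pools.

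DBP belongs to the phthalates, which soften plastics and are studied as endocrine disruptors. A response that turns back at a higher dose is called biphasic or U-shaped, and it is a common question for such compounds because a monotonic test can miss it. Protein-coding genes are often transcribed as several isoforms, and a short read can match more than one of them. In a whole embryo all tissues are pooled, so fewer cells of a type and less RNA per cell cannot be told apart. The files identify transcripts by Ensembl identifiers alone and no table used here pairs these with genes, so members are described by identifier or coding length, and neither gene functions nor tissue markers were examined.

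The control labelled replicate B stood apart and was left out. Its median correlation with the other libraries was 0.829, against 0.895 to 0.926 for the other 14, and 1334 transcripts had at least 10 counts in it and none elsewhere, against 25 to 55 for the others. The labels mark the control replicate D as the outlier instead. The control group is therefore 2 libraries, replicates D and E, and library totals ran from 17.2 to 28.0 M counts. Where a library had a count of 0, the limit is 3 counts, for counting error only.

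Most members dipped by a small amount. The ratio of the mean CPM on the high side (0 and 100 μg/l) to that on the low side (10 and 50 μg/l) had a median of 1.41, with quartiles of 1.27 and 1.83. It was at least 1.5 for 63 members, at least 2 for 25 and at least 3 for 7, and it reached 9.79. Mean levels ran from 1.04 to 302 CPM, with a median of 7.94 CPM. The ratio fell with the level: its median was 1.87 for the 38 members under 3 CPM, 1.54 for the 48 from 3 to 10 CPM, 1.27 for the 51 from 10 to 50 CPM and 1.25 for the 9 above 50 CPM. These values chose the members and carry no test.

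**Figure D1:**
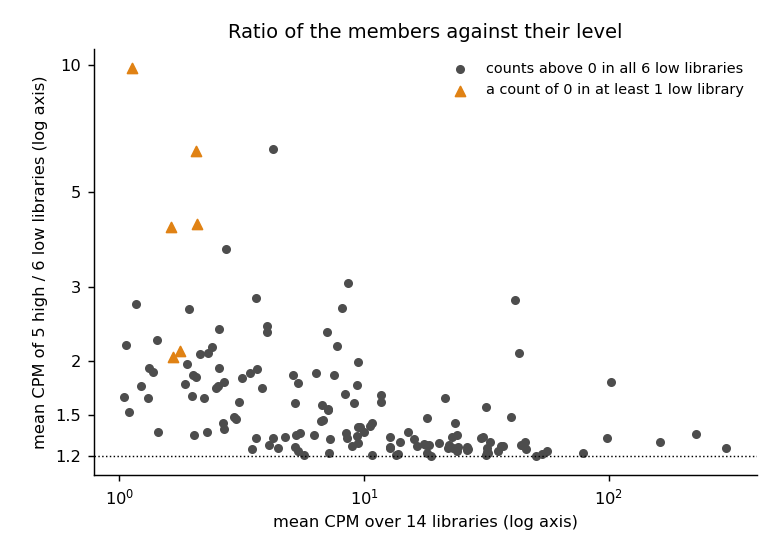
Ratio of the mean CPM of the 5 libraries at 0 and 100 μg/l to that of the 6 libraries at 10 and 50 μg/l (vertical, log axis) against the mean CPM over 14 libraries (horizontal, log axis), 1 point for each of 146 members. Triangles are the 6 members with a count of 0 in at least 1 low library, the dotted line is the minimum ratio of 1.2, and large ratios lie mainly at low levels.

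At the edges of the rule the difference from a transcript left out was slight. The 2 members just inside the minimum had ratios of 1.20024 and 1.20031, and the 2 transcripts just outside had 1.19986 and 1.19894. For the condition of no overlap, the closest member had 9.70799 CPM in its lowest high library against 9.70718 in its highest low library, and the next had 3.31147 against 3.31024. Just outside, the values were 7.32526 against 7.32583 CPM, and 8.65949 against 8.66179.

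The member with the largest ratio, ENSDART00000045792.8, has a coding length of 429 bases and was listed at 0 in all 3 libraries at 10 μg/l. Its levels were 2.18 and 1.73 CPM in the controls, 0.762, 0.623 and 2.29 at 5 μg/l (replicates A, B and E), 0.770, 0.557 and 0 at 50 μg/l (A, B and D), then 1.71, 1.21 and 4.00 at 100 μg/l (A, C and E). The pattern rests on few reads, with 17.4 and 11.2 estimated counts behind the 2 values above 0 at 50 μg/l.

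The next in ratio, 6.34, was a transcript of 1611 bases that was low in every library of both intermediate doses. It stood at 4.65 and 15.2 CPM in the controls, at 0.758, 1.46 and 1.36 at 10 μg/l, at 0.951, 1.495 and 1.41 at 50 μg/l, and at 3.49, 7.04 and 8.98 at 100 μg/l. At 5 μg/l it took values between the sides, 1.65, 3.94 and 7.22 CPM.

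A transcript of 774 bases, with a ratio of 6.26, switched between 0 and several CPM from library to library. It was listed at 0 in all 3 libraries at 10 μg/l, in replicate B at 50 μg/l and in replicate B at 5 μg/l, while the other libraries held 1.69 to 5.80 CPM. A zero was thus not restricted to the doses of the dip. The estimate divides reads among similar transcripts, and whether such a zero is a failed estimate was not tested.

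Among the other 5 of the 8 largest ratios, a transcript of 1503 bases had a ratio of 4.22 and a mean of 0.226 ± 0.225 CPM (SD, n = 3) at 10 μg/l. At 50 μg/l its mean was 1.26 ± 0.704 CPM, and 5 μg/l gave 3.05 ± 0.951 CPM. A transcript of 984 bases, with a ratio of 3.06, held 14.2 and 20.5 CPM in the controls and 20.4 CPM in replicate E at 5 μg/l, but 5.03 and 3.05 in replicates A and B of that dose. At 100 μg/l it had 7.53, 7.80 and 16.4 CPM against 7.17 in the highest low library, so that its lowest high and highest low values were close. The ratio of ENSDART00000077063.6, of 963 bases, was 3.67, with 4.27 and 4.54 CPM in the controls, 0.490 to 1.96 at both intermediate doses and 2.01 to 4.81 at 100 μg/l. The remaining pair, of 1053 and 633 bases, had ratios of 4.13 and 2.82.

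In the most abundant members the dip, which the rule required of every member, rested on many reads, at ratios of 1.22 to 1.79. ENSDART00000104475.3, of 135 bases, held 338 and 342 CPM in the controls and 341, 332 and 383 CPM in the libraries of 5 μg/l. The libraries of 10 μg/l held 246, 227 and 276 CPM and those of 50 μg/l 264, 280.0 and 260.3, and at 100 μg/l the values were 307, 284 and 353 CPM. All 3 libraries at 5 μg/l thus lay on the high side, and the step came between 5 and 10 μg/l.

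ENSDART00000138240.2, of 336 bases, fell into 4 separate levels. It was at 275 and 291 CPM in the controls and 297, 283 and 284 at 5 μg/l, then at 152, 149 and 184 at 10 μg/l, at 199, 199.6 and 212 at 50 μg/l, and at 226, 215 and 227 at 100 μg/l. The rule itself required 100 μg/l to lie above 10 and 50 μg/l, and the closest libraries were at 214.6 and 212.1 CPM. The rule did not ask that 10 μg/l lie below 50 μg/l without overlap, or that 100 μg/l stay below both controls.

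A transcript of 1527 bases had the largest ratio, 1.79, of the 6 most abundant, with means of 129.9 ± 22.0 CPM (SD, n = 2) in the controls and 104.5 ± 17.0 (n = 3) at 5 μg/l. Its mean was 75.5 ± 17.1 CPM at 10 μg/l, 74.0 ± 8.17 CPM with 50 μg/l and 136.9 ± 24.8 CPM with 100 μg/l. A transcript of 582 bases had a mean of 74.0 ± 15.3 CPM at 10 μg/l, 95.6 ± 2.54 CPM with 50 μg/l and 105 ± 4.37 CPM in the controls, so that its low values came mainly from 10 μg/l. The other 2 of the 6, of 723 and 2325 bases, had ratios of 1.29 and 1.22.

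**Figure D2:**
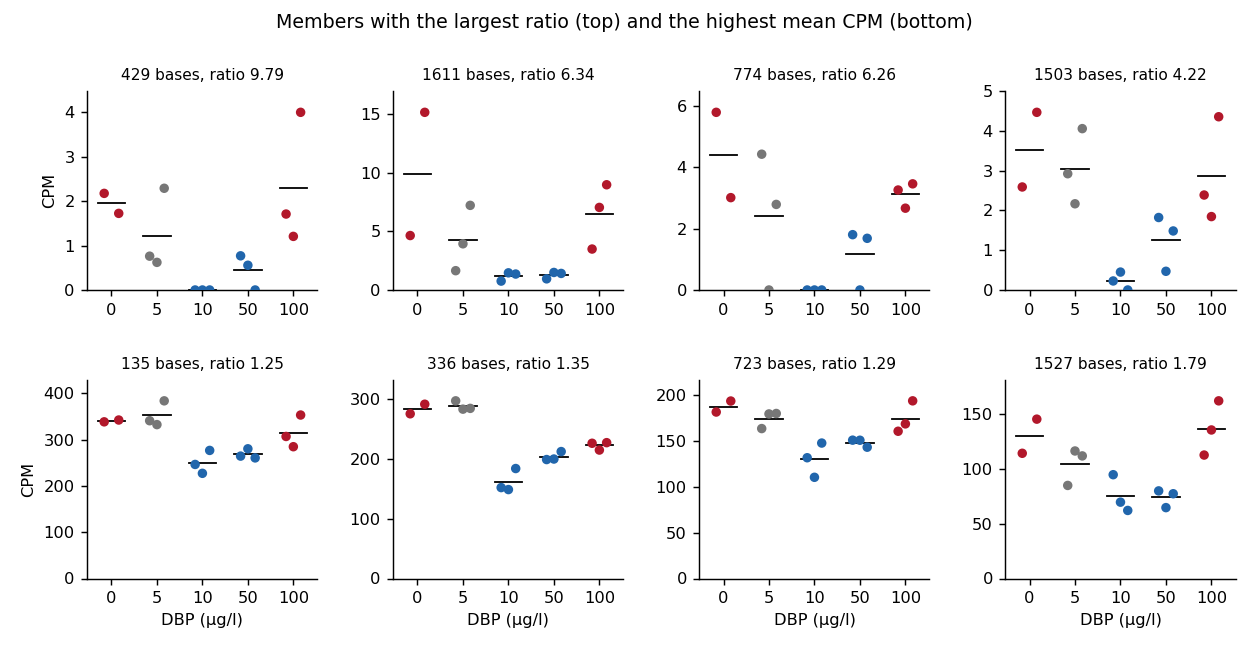
CPM (vertical, from 0) at each DBP dose (horizontal, μg/l) for the 4 members with the largest ratio (top) and the 4 with the highest mean CPM (bottom), 1 point per library with a bar at the mean. Red libraries (0 and 100 μg/l) and blue ones (10 and 50 μg/l) chose the members. Grey ones at 5 μg/l entered only the mean level and the leave-out condition. The transcripts of 429 and 774 bases reach 0 in all 3 libraries at 10 μg/l.

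The dose of 5 μg/l lies beside the controls and entered the rule only through the mean level and the leave-out condition. Both sides it is set against chose the members, so its level is a description. On log2(CPM + 0.5), 125 of 146 members (85.6%) had a lower mean at 5 μg/l than in the controls, against 51.0% of the 25977 transcripts that met the level and length conditions. The median difference from the controls was −0.17 for the members, with −0.00 over all 25977. The rule chose members with high values in both controls, so a lower mean at 5 μg/l was itself favoured by the selection. At 10 and 50 μg/l, where the rule fixed the direction, the members' medians were −0.52 and −0.43, and at 100 μg/l the median was −0.03, against −0.07 over all 25977.

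The 3 libraries at 5 μg/l did not take one position. On a scale where 0 is a member's mean over the low libraries and 1 its mean over the high libraries, the median place was 0.35 in replicate A, 0.54 in replicate B and 0.97 in replicate E. With the 3 averaged it was 0.64, and 0.44 without replicate E. Replicate E reached at least the lowest high library for 116 members, replicate A for 51 and replicate B for 58. The 3 libraries lay on the high side together for 27 members and on the low side together for 11, and 89 members had them on both sides of the gap. The mean at 5 μg/l was below those at both 10 and 50 μg/l for 5 members, of 732, 735, 771, 1344 and 3582 bases.

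**Figure D3:**
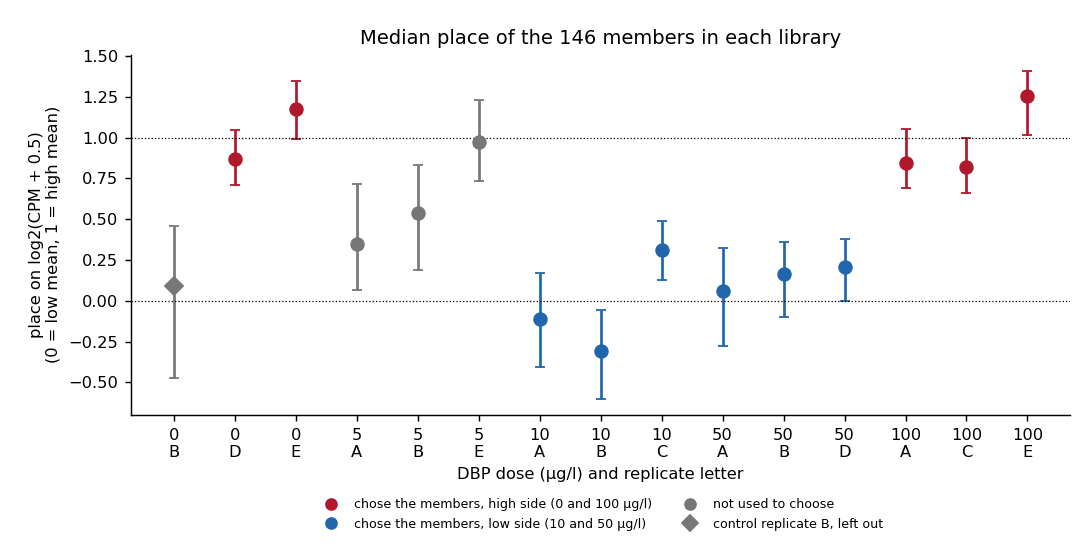
Median place of the 146 members (vertical, 0 = mean of the low libraries, 1 = mean of the high libraries, on log2(CPM + 0.5)) in each library (horizontal, DBP dose in μg/l and replicate letter), with bars for the quartiles over members. Red and blue libraries chose the members and are apart by construction, the 3 grey circles at 5 μg/l run from 0.35 to 0.97, and the control replicate B left out (diamond) is at 0.09.

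Within a dose, the rule did not set the order of the libraries directly, and most members shared one. All libraries outside 5 μg/l chose the members, and the library nearest the gap limits which transcripts pass. The rule can thus shape this order, and the shares below are a description. Replicate E held the highest value of its dose for 109 members (74.7%) in the controls, for 105 (71.9%) at 5 μg/l and for 102 (69.9%) at 100 μg/l. Over the 25977 transcripts these shares were 59.8%, 41.4% and 41.4%. At 10 μg/l replicate C was highest for 105 members (71.9%, against 39.9%) and replicate B lowest for 86 (58.9%, against 26.0%). At 50 μg/l the order was more even, with replicate D highest for 54 members (37.0%, against 28.8%).

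The deepest library of each dose came first in this order, but the rest did not follow depth. In all 5 doses the library with the most counts was highest for more members than any other of its dose. It was replicate E in the controls (25.9 M), at 5 μg/l (25.4 M) and at 100 μg/l (28.0 M). At 10 μg/l it was replicate C (26.2 M) and at 50 μg/l replicate D (23.2 M). The lead at 50 μg/l was small, with 54 members for replicate D and 51 for replicate B, which had the fewest counts there. Control replicate D, at 25.86 M, was nearly as deep as E, at 25.94 M. At each exposed dose the deeper of the other libraries had the lower median place. At 5 μg/l this was 0.35 in replicate A (23.8 M) against 0.54 in B (20.2 M). With 50 μg/l it was 0.06 in A (22.6 M) against 0.16 in B (20.1 M). At 10 μg/l the depths of A and B were close, at 21.0 and 21.3 M. At 100 μg/l the places of A and C were close, at 0.84 and 0.82. Outside 5 μg/l these libraries also chose the members, so their places are not free of the rule. The shallowest library, replicate A at 100 μg/l with 17.2 M counts, belonged to the high side. Its median place there, 0.84, was fixed in direction by the rule and carries no information on depth. Transcripts of 1 to 3 CPM that are not members were above their mean over libraries in the deepest library of 4 of the 5 doses. The median on the log2 scale was 0.13 in control replicate E and 0.11 in replicate E at 5 μg/l. It was 0.14 in replicate C at 10 μg/l and 0.11 in replicate E at 100 μg/l. In replicate D at 50 μg/l these transcripts were below their mean, at −0.06. Only 38 of the 146 members were under 3 CPM. Over non-members of all levels from 1 CPM, the medians in the same 5 libraries were 0.06, 0.05, 0.05, 0.02 and −0.08. They did not follow depth at each dose: replicate B had 0.07 at 10 μg/l and 0.05 at 5 μg/l. The part of depth in the members' pattern was not tested.

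**Figure D4:**
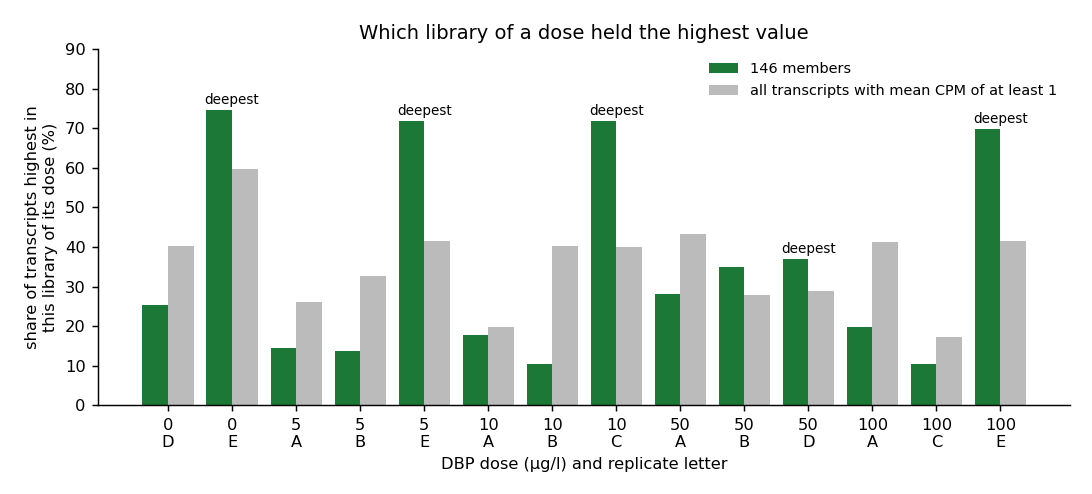
Share of transcripts (vertical, %) for which a library held the highest CPM of its dose, for the 146 members (green) and for all 25977 transcripts that met the level and length conditions (grey), by DBP dose (μg/l) and replicate letter. The deepest library of each dose is marked, and in each of the 5 doses it has the tallest green bar.

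The replicate letters were not spread evenly over the sides. Letter E marked 2 libraries of the high side and none of the low side, and letter B marked 2 of the low side and none of the high side. Within letters that both sides share, the median log2 difference of high minus low was 0.43 for letter A, 0.22 for letter C and 0.33 for letter D, against 0.46 over the 11 libraries. The direction within each letter was fixed by the rule, and the difference was smallest for letter C. The labels do not say whether a letter marks a shared batch. Applying the rule without both E libraries gave 167 transcripts, 107 of them members, and without both B libraries 247, with 139 of the members.

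The rule does not order 10 against 50 μg/l, so this difference was tested, with edgeR's quasi-likelihood test over 32350 transcripts. The rule did use these 6 libraries, since it held each of them below the high side. That can shape the members' spread and differences, so their shares beside all transcripts are a description. The members were mostly lower at 10 μg/l: 119 of 146 (81.5%) were higher at 50 than at 10 μg/l, against 45.9% of all transcripts, with a median log2 difference of 0.13 (quartiles 0.03 and 0.27) against −0.02. On CPM without edgeR's scaling factors, 95 members had the higher mean at 50 μg/l. None of the 146 members had an adjusted p under 0.05 by edgeR, where 0 of all transcripts (0%) did and the smallest adjusted p was 0.0507. At an unadjusted p under 0.05 there were 15 members (10.3%), 14 of them higher at 50 μg/l, against 1250 transcripts (3.86%).

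ENSDART00000138240.2 had the smallest unadjusted p of the members for 50 against 10 μg/l, with a log2 difference of 0.41 (SE 0.083, edgeR unadjusted p 0.00045, adjusted p 1). Here and below the SE is approximate, taken from the log2 difference and the F statistic. The transcript of 582 bases had a difference of 0.44 (SE 0.14) and that of 723 bases 0.26 (SE 0.10), with unadjusted edgeR p of 0.0092 and 0.026. Neither was called after adjustment. The member that moved the other way at an unadjusted p under 0.05, with a coding length of 3381 bases, had 3.45, 1.38 and 4.33 CPM at 10 μg/l and 1.53, 1.55 and 1.33 at 50 μg/l, a log2 difference of −0.99 (SE 0.35). That member was not called by edgeR either. DESeq2 called 122 transcripts, among them 3 members, ENSDART00000138240.2 and the transcripts of 429 and 774 bases, whose levels at 10 μg/l are listed at 0. By limma on log2(CPM + 0.5) 4 transcripts were called and no member. Without replicate C at 10 μg/l, edgeR called 4 transcripts and no member, and the members' median rose to 0.24. In that fit 38 members had an unadjusted edgeR p under 0.05, beside 1901 of 32136 transcripts, which was also more than in the main fit. Without replicate B at that dose the median was 0.07.

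The doses 100 and 0 μg/l both lie on the high side, and the rule asked every library of both to exceed the low side, so a level near the controls at 100 μg/l was itself selected. The ratio of mean CPM at 100 to 0 μg/l was within 1.2 times in either direction for 116 of 146 members (79.5%), against 51.8% of the 25977 transcripts, with 60 members above the controls and 86 below. The leave-out condition removes transcripts that overshoot most clearly at 100 μg/l, so a rise there is cut short by construction. In the edgeR test, 29 of 32350 transcripts (0.0896%) were called, 21 higher and 8 lower at 100 μg/l, and none of the members, for which the smallest adjusted p was 0.317. With the replicate letter as a block, or with only these 2 doses in the fit, edgeR called 0 transcripts, with 3083 and 2846 at an unadjusted p under 0.05. Unadjusted p was under 0.05 for 5 members (3.42%), 4 of them higher, against 11.2% of all transcripts. The median log2 difference was 0.05 against 0.00, and 92 members (63.0%) were higher with edgeR's scaling, against 49.9% of all transcripts tested. On CPM the majority was lower, among the members as over the 25977. By dose means on the log2 scale of CPM used above, 85 members (58.2%) were below the controls, against 58.1% of the 25977. The direction thus depended on the scaling, and on CPM the members' share was close to that of the 25977.

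The member nearest to a call was again ENSDART00000138240.2, lower at 100 μg/l than in the controls by a log2 difference of −0.28 (SE 0.092, edgeR adjusted p 0.317), which DESeq2 called with an adjusted p of 0.0411. It was the 1 member among 1158 of 32350 transcripts that DESeq2 called in this comparison. By limma 60 transcripts were called and no member. With the control replicate B restored, the members' median difference rose to 0.19 and no member was called. Then 13 members had an unadjusted edgeR p under 0.05, beside 3608 of 31679 transcripts.

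**Figure D5:**
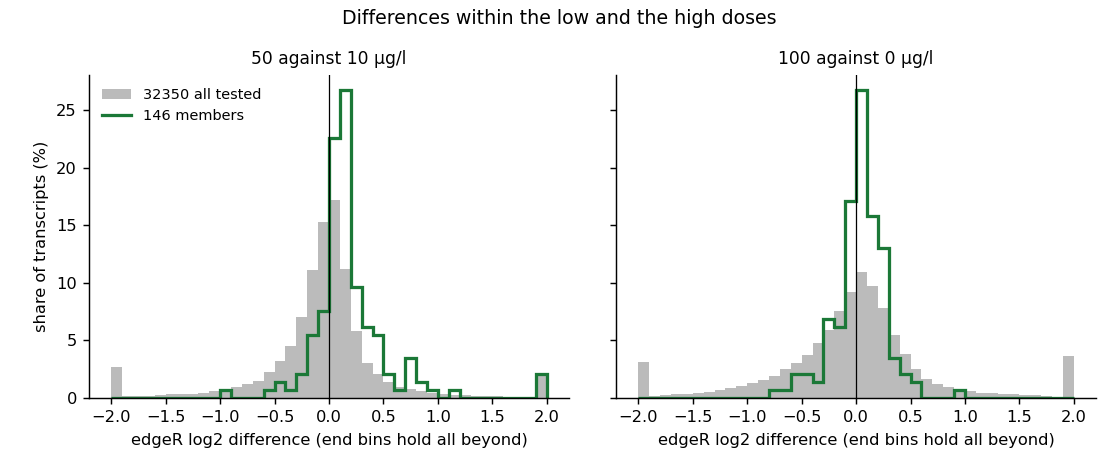
Share of transcripts (vertical, %) by edgeR log2 difference (horizontal) for 50 against 10 μg/l (left) and 100 against 0 μg/l (right), for all 32350 tested (grey) and the 146 members (green line). The end bins hold all values beyond them, and the members' median lies at 0.13 on the left and 0.05 on the right.

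The members were shorter than the transcripts they were chosen from. Their coding length had a median of 1002 bases, from 135 to 4416, against 1314 bases for the 25977, and 50 members (34.2%) were under 800 bases against 25.5%. Of listed lengths, 97.9% of the members' and 96.1% of those of the 25977 were multiples of 3. A count that was not whole, as arises when a read is divided between similar transcripts, occurred in at least 1 library for 102 members (69.9%) against 61.1%. The members of a gene or a family cannot be grouped from identifiers alone, so reads shared among members are uncertain.

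Fewer members met the conditions on TPM, which scales each count by an effective length estimated in that library. The members were chosen on CPM, so a loss on another scale can come from the choice alone. All 146 members had a higher mean TPM on the high side and 135 a ratio of at least 1.2, but the sides did not overlap for 64, and 63 met both conditions. Applied afresh to TPM, the rule chose 54 transcripts, 41 of them members. With edgeR's scaling factors it chose 127, of which 94 were members.

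The control replicate B did not share the level of the other controls for these transcripts. Its median place was 0.09, on the side of 10 and 50 μg/l, and it was at or below the highest low library for 113 of 146 members, below all other 14 libraries for 30 and listed at 0 for 7. The rule chose members with high values in control replicates D and E, so a lower level in a control outside it was favoured by the selection. This library also stood apart over all transcripts, and the same counts were not taken over all of them, so these counts are a description. With this library counted among the high side, 32 of the members still met the rule. Of single libraries, the number of transcripts chosen depended most on replicate C at 10 μg/l, without which the rule chose 678, 144 of them members. Without the control replicate D, which the labels mark as the outlier, it chose 266, and it chose 340 without replicate A and 229 without replicate C at 100 μg/l, and 222 without replicate B at 50 μg/l. Removing a library loosens the rule, so more transcripts can pass.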

How the data were processed

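Single reads from 15 mRNA libraries were trimmed with Trimmomatic and assigned with Salmon 1.5.1 to the GRCz11 reference transcriptome of zebrafish by the authors, per the labels and the study's methods. The authors deposited Salmon's estimated counts, which need not be whole and are not scaled for depth. TPM values, counts over effective length scaled to a common total, were deposited for each library, as were other columns with transcript length and effective length. CPM were computed from unrounded counts and column sums. For the tests, counts were rounded to whole numbers, filtered with filterByExpr, scaled by TMM and fitted with edgeR 4.0.16 (quasi-likelihood, a mean for each dose, 14 libraries), with Benjamini-Hochberg adjustment over all transcripts and a threshold of 0.05, in R 4.3.3. The test was tried on simulated data first. DESeq2 1.42.0, limma 3.58.1, other scalings and filters, the replicate letter as a block, TPM and each library left out were alternatives. Figures were drawn with Python 3.11.15 and matplotlib 3.10.9.

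The members, lists and tests were chosen with earlier results of these data known. The named transcripts are the 8 with the largest ratio, the 6 with the highest mean CPM, any called and those at the edges. The rule allowed 2 identifiers, and 2 more, with the transcripts named by length for their p-values, were chosen after values were seen. The lists of genes and tissue markers could not be applied, because identifiers are not paired with genes here. No sequence is printed.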

Additional observations from a re-analysis of the deposited data

Results flagged for a closer look

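The control replicate B, which was left out of the comparisons, was higher than all other 14 libraries for 5 of the 146 members, of 192, 465, 945, 963 and 1542 bases, although it lay with the low side for most. One of them, ENSDART00000077063.6, of 963 bases, was at 61.3 CPM in that library against 0.490 to 7.42 CPM in the other 14. Groups of 2 or 3 libraries are too small for a test of single outlying libraries.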

How the results depend on the processing

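The number of transcripts chosen was 54 on TPM, 63 with a minimum ratio of 1.5, 93 with a minimum mean of 5 CPM, 32 with the control replicate B on the high side and 155 to 678 with 1 library left out. Alternatives chosen after seeing the data moved it to 247 (without both B libraries of the low side) and to 63 (the 146 read on TPM). For 50 against 10 μg/l, calls over all transcripts numbered 1 with DESeq2's size factors, 122 with DESeq2, 4 with limma, 2 with all 15 libraries and 0 to 8 with 1 library left out. For 100 against 0 μg/l they numbered 1158 with DESeq2, 60 with limma, 0 with only the 2 doses compared and 16 to 48 with 1 library left out. The causes were not tested. Members were called by DESeq2 alone among the settings run.

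The replicate letter as a block gave 0 calls in both comparisons. Deviations from the dose means correlated with r of −0.076 to 0.245 (median 0.092) over 14 same-letter pairs of libraries, against a median of −0.03 over 64 other pairs. The comparisons share 1 letter (E at 0 and 100 μg/l, r of 0.17) or 2 (A and B at 10 and 50 μg/l, 0.066 and 0.076), fewer than 3 pairs, and the labels tie no letter to a batch. Directions turned for ENSDART00000077063.6 at 50 against 10 μg/l without replicate D at 50 μg/l (−0.14; 0.85 at most with 1 library left out), and at 100 against 0 μg/l for ENSDART00000045792.8 with the block (−0.58) or without replicate E at 100 μg/l (−0.35; 0.59 at most) and for ENSDART00000104475.3 without replicate C (0.0059; −0.11 at least), none of them called. Each comparison rests on 2 or 3 libraries a dose, and members near 1 CPM on few reads. What size of difference could be detected was not tested.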
